A study of Mus musculus with 10 samples.

Results

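The 4 mouse Hox clusters were followed from sperm to blastocyst in reduced representation bisulfite sequencing (RRBS) data of embryos with and without maternal Tet3. Members were all cytosine positions of the deposited files (build mm9) inside fixed windows around HoxA (165 kb), HoxB (185 kb), HoxC (130 kb) and HoxD (120 kb). The first and last of them were chr6:52100310-52264021 in HoxA, chr11:96051537-96230273 in HoxB, chr15:102764312-102874701 in HoxC and chr2:74493578-74601798 in HoxD. The members numbered 550 of the 344353 positions covered in at least 1 library. Positions were summed into 100-bp tiles, which gave 194 Hox tiles of 183899 autosomal tiles.

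Hox genes encode homeodomain transcription factors that give cells along the head-to-tail axis their positional identity. Their clusters are rich in CpG dinucleotides, are silent in the earliest embryo, and are targets of Polycomb complexes. CpG-dense Polycomb targets of this kind are commonly free of DNA methylation in the germ line and in pluripotent cells. TET3 is a dioxygenase that the egg supplies to the zygote and that oxidises 5-methylcytosine. In RRBS, DNA is cut with MspI, which recognises CCGG, so that mostly CpG-rich sequence is read. The bisulfite step leaves 5-methylcytosine and 5-hydroxymethylcytosine alike unconverted, so "methylation" below is the sum of both marks.

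The study's 10 libraries form 5 groups of 2 that its labels call biological duplicates. Sperm came from adult CAST/EiJ males of WT genotype. CKO embryos carry the genotype label maternal Tet3 KO and WT embryos the label WT, both of the cross C57BL/6J x CAST/EiJ. Eggs of superovulated females aged 7 to 10 weeks were fertilised in vitro with CAST/EiJ sperm, and embryos were collected after 13 h as zygotes (40 to 50 in a library) or after 96 h as blastocysts (4 in a library). The Cre driver behind the CKO name is not given in the sources used here, nor is whether reads were kept by parental allele. The names of all the deposited tables, embryos included, begin with CAST, the strain of the fathers, and what that prefix stands for is not stated. Embryo values, and their differences from sperm, may therefore be of both parental copies or of the CAST copy alone.

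Libraries held 1005492 to 2535229 counts in all, of which 2091 to 6088 fell in the Hox windows, with a median of 5 to 12 counts per covered Hox position. Only 3.23% of the 100-bp tiles of the 600 kb held any covered position. The longest uncovered distance was 24.8 kb, in HoxB. At least 10 counts in a group (both libraries summed) were reached by 115 Hox tiles in sperm, 105 in CKO zygotes, 98 in WT zygotes, 90 in CKO blastocysts and 89 in WT blastocysts. At least 10 counts in every library were reached by 23 tiles, of which 9 lie in HoxA, 5 in HoxB, 2 in HoxC and 7 in HoxD. Of the 550 positions, 472 lay in 117 sets of neighbours that shared the same counts in every library. With positions that shared counts with no neighbour taken as sets of their own, there were 195 sets. Counts are therefore not numbers of reads or of molecules, and intervals below cover counting error only.

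The files name no genes, and no mm9 annotation was used. The order of CG dinucleotides in RefSeq promoter sequences (GRCm38.p6) was therefore matched to the covered mm9 positions. Of 27 promoters of 25 genes of the clusters, 2 could be placed. The others matched at most 6 positions and were not placed. A placement required every covered position in the promoter to fall on a CG dinucleotide, and at least 9 such positions. The Hoxa5 placement held 13 covered positions, and the next best placement held 4. The Hoxd1 placement held 9, the minimum, and the next best held 4. Hoxa5 takes part in patterning the neck and upper thorax, and Hoxd1 is the most anterior gene of its cluster. The 250 bases before each start site are shown because they are the regions of the clusters that can be tied to a gene. They lie at chr6:52154587-52154836 (minus strand) and chr2:74600787-74601036 (plus strand) in mm9, as placed. Capitals mark the CG dinucleotides covered in the files.
Hoxa5: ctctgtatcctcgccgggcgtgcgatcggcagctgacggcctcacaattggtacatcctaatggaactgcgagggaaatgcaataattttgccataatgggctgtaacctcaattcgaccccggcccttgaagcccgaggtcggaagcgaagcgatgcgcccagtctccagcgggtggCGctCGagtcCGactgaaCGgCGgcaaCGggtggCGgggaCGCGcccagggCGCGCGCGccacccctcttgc
Hoxd1: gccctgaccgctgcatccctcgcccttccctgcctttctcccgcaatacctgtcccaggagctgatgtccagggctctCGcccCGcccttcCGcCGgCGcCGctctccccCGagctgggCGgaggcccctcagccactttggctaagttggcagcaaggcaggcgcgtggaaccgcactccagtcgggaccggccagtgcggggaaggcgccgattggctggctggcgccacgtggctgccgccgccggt
The covered positions lay 15 to 71 bp before the Hoxa5 start site and 131 to 171 bp before the Hoxd1 start site. The stretches hold 2 and 3 CCGG sites, the MspI motif, which reads the same on both strands. Of the 250-base promoters of the clusters' genes, 18 of 27 held CCGG (66.7%), against 47.1% of 32851 promoters genome-wide. Their median was 12 CG dinucleotides, against 6 genome-wide.

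Both promoters were unmethylated at every stage and in both genotypes. At Hoxa5, methylated counts were 0 of 195 in sperm, 0 of 269 in CKO zygotes, 0 of 66 in WT zygotes, 0 of 85 in CKO blastocysts and 0 of 135 in WT blastocysts. If counts were independent, they would allow up to 1.54%, 1.12%, 4.55%, 3.53% and 2.22%, in the same order. Positions of the same read are not independent, so the limits are wider than these. At any Hoxa5 position the most counts were 9 and 10 in the sperm libraries and 4 and 2 in WT zygotes. They were 17 and 12 in CKO zygotes, 5 and 4 in CKO blastocysts, and 7 and 8 in WT blastocysts. At Hoxd1, methylated counts were 0 of 268 in sperm, 0 of 95 in CKO zygotes, 0 of 69 in WT zygotes, 0 of 99 in CKO blastocysts and 1 of 78 in WT blastocysts. That single count came from 1 of the 2 WT blastocyst libraries. No Hoxd1 position held more than 8 and 3 counts in the WT zygote libraries. Neither gene showed a difference between genotypes at this depth, which is too low to exclude one.

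Nearly all covered Hox tiles were unmethylated in sperm, and they remained low in zygotes and blastocysts of both genotypes. A tile was called unmethylated at a level of at most 20% and methylated at a level of at least 80%, counts of a group summed. Unmethylated tiles made up 102 of 115 in sperm (88.7%), 93 of 105 in CKO zygotes (88.6%), 87 of 98 in WT zygotes (88.8%), 83 of 90 in CKO blastocysts (92.2%) and 88 of 89 in WT blastocysts (98.9%). Over all autosomal tiles the shares were 40.5% in sperm, 43.0% in CKO zygotes, 50.1% in WT zygotes, 62.7% in CKO blastocysts and 72.5% in WT blastocysts. Methylated Hox tiles numbered 5 in sperm, 2 in CKO zygotes and 1 in WT zygotes, and there were 0 in either blastocyst group. Over all autosomal tiles the methylated shares were 45.6% in sperm, 19.0% in CKO zygotes, 12.4% in WT zygotes, 2.76% in CKO blastocysts and 1.75% in WT blastocysts.

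**Figure D1:**
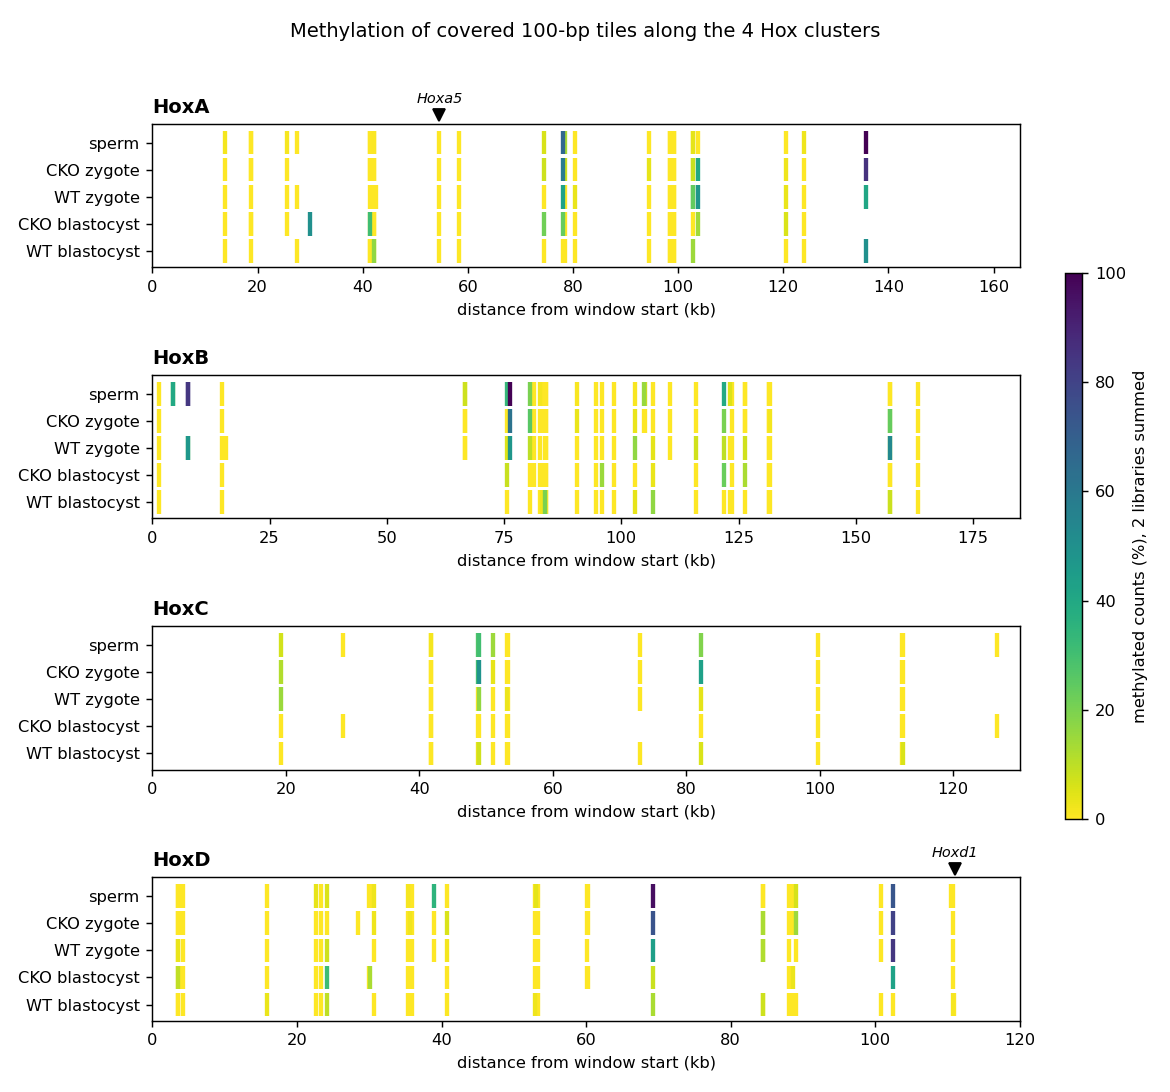
Each tick is a 100-bp tile with at least 10 counts in that group, placed by its distance in kb from the start of the window and coloured by its methylated share of counts in percent, both libraries of a group summed. Ticks are wider than the tiles, the higher value lies on top, and triangles mark the placed Hoxa5 and Hoxd1 start sites. Most ticks in all 5 groups are at or near 0, and the dark ticks of sperm, such as HoxD at 69.3 kb, are lighter in blastocysts.

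**Figure D2:**
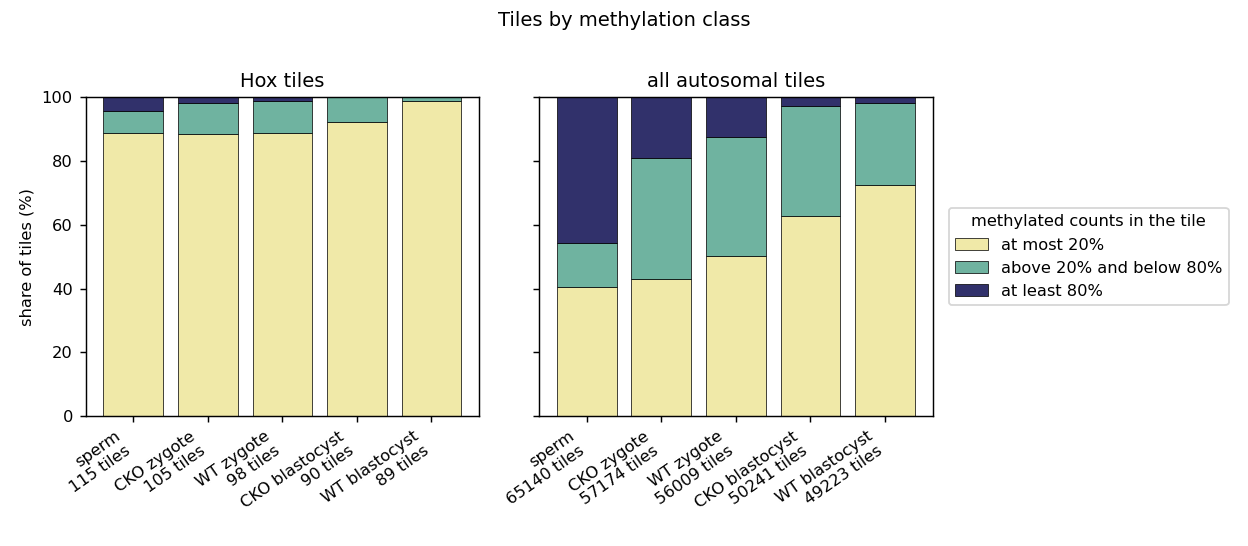
Bars show the share of tiles (%) in 3 classes of methylation for each group, in the Hox windows on the left and over all autosomes on the right, with at least 10 counts in the group. In the Hox windows 88.6% to 98.9% of tiles are at most 20% methylated, against 40.5% to 72.5% over all tiles.

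The same held where the same tiles were compared. Over the 75 Hox tiles with at least 10 counts in all 5 groups, 62 (82.7%) were at most 20% in every group, against 42.8% of 33163 tiles over all autosomes. In 29 of the 75 (38.7%) no methylated count was seen in any group, against 20.7% of all tiles. Among tiles that began at most 20% in sperm, the Hox windows and the autosomes gave similar shares. Of 68 such Hox tiles, 65 (95.6%) remained at most 20% in CKO zygotes, 66 (97.1%) in WT zygotes, 66 (97.1%) in CKO blastocysts and 68 (100%) in WT blastocysts. Over 15702 such autosomal tiles the shares were 95.1%, 95.8%, 97.3% and 97.0%, in the same order. These shares were not tested, since tiles share reads and are not replicates.

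Unmethylated Hox tiles held more covered positions than methylated ones. The 102 tiles at most 20% in sperm held a median of 3 positions, and 22 of them held a single position. The 7 tiles at least 50% in sperm held a median of 1, and 6 of them held a single position. Over all autosomes the medians were also 3 and 1.

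Stretches were runs of at least 2 neighbouring tiles of 1 class with starts at most 2000 bp apart. Unmethylated stretches numbered 26 in sperm, 22 in CKO zygotes, 21 in WT zygotes, 20 in CKO blastocysts and 20 in WT blastocysts. The longest, 3900 bp with 4 tiles at chr11:96153001-96156900 in HoxB, had 6 of 390 counts methylated in sperm (1.54%) and 5 of 438 in CKO zygotes (1.14%). The next, in HoxB at chr11:96130501-96134100, spanned 3600 bp and held 7 tiles in sperm with 6 of 390 counts methylated. In CKO zygotes its part at chr11:96131301-96134100 had 0 of 235 counts methylated. In WT zygotes it held 6 tiles with 3 of 202 methylated. In CKO blastocysts the same 7 tiles had 0 of 245 counts methylated, and in WT blastocysts its part at chr11:96132601-96134100 had 7 of 155 methylated (4.52%). In HoxA, chr6:52125601-52127600 had 1 of 151 counts methylated in sperm and 0 of 90 in WT zygotes. Also in HoxA, chr6:52178501-52180400 had 6 of 112 counts methylated in CKO zygotes (5.36%), 2 of 123 in WT zygotes and 0 of 67 in CKO blastocysts. The longest stretch in WT blastocysts, 2300 bp at chr6:52178101-52180400, had 0 of 111 counts methylated. WT blastocysts also had 0 of 77 at chr2:74590801-74592600 in HoxD and 0 of 165 at chr11:96172001-96173700 in HoxB. In CKO blastocysts chr11:96144701-96145900 in HoxB had 9 of 80 methylated (11.2%). The gap limit sets these lengths. With no gap limit, a choice made after the data were seen, WT blastocysts had 4 unmethylated runs, 1 for each cluster, the longest being 161900 bp with 25 of 1427 counts methylated (1.75%). The runs numbered 11 in sperm, 12 in CKO zygotes, 9 in WT zygotes and 8 in CKO blastocysts.

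A single methylated stretch was found, 2 single-position tiles in HoxB at chr11:96057601-96057800, in sperm alone of the 5 groups. It had 32 of 38 counts methylated in sperm (84.2%). In CKO zygotes each of its tiles had 0 of 7 counts methylated. In WT zygotes 8 of 17 and 4 of 17 were methylated. In blastocysts each tile had 0 of 8 counts methylated in CKO and 0 of 5 in WT. At these depths a difference between CKO and WT zygotes was not tested. Stretches between both bounds were few. In HoxA, chr6:52202801-52203800 had 37 of 114 counts methylated in WT zygotes (32.5%), against 2 of 125 in sperm (1.6%), where it was an unmethylated stretch. In HoxC, chr15:102793801-102794000 had 39 of 138 in sperm (28.3%) and 33 of 93 in CKO zygotes (35.5%). It had 8 of 147 in WT zygotes (5.44%), 0 of 51 in CKO blastocysts and 5 of 123 in WT blastocysts (4.07%). In its tile at chr15:102793801-102793900 the CKO zygote libraries had 0 of 26 and 18 of 36.

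Summed over all covered Hox positions, methylation was 6.03% and 4.83% in the sperm libraries, 6.22% and 7.50% in CKO zygotes, 8.09% and 4.18% in WT zygotes, 2.63% and 3.38% in CKO blastocysts, and 2.58% and 1.81% in WT blastocysts. Over all covered positions it was 37.1% and 38.3% in sperm, 30.6% and 30.4% in CKO zygotes, 23.7% and 24.6% in WT zygotes, 16.6% and 15.7% in CKO blastocysts, and 11.99% and 11.5% in WT blastocysts. In the Hox windows CKO and WT libraries overlapped in zygotes, and the 2 CKO blastocyst libraries were above the 2 WT ones. Positions differ between libraries, so these sums also reflect which tiles were covered.

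**Figure D3:**
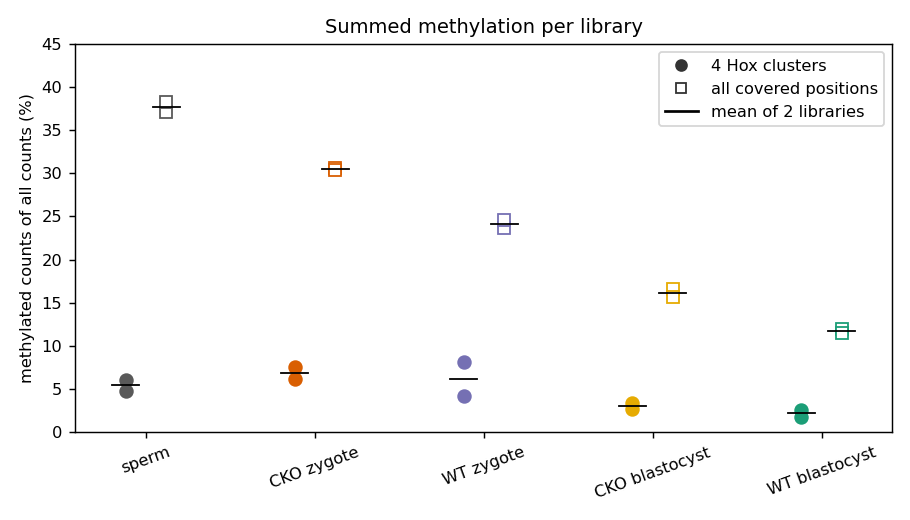
Points give methylated counts as a percentage of all counts in each library, filled for the Hox windows and open for all covered positions; lines are the means of 2 libraries. All Hox values are between 1.81% and 8.09%, below every value over all positions, which are between 11.5% and 38.3%.

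For the comparisons, levels were averaged over the same 23 tiles. The mean was 5.11 ± 0.247% in sperm, 5.34 ± 0.0584% in CKO zygotes, 5.17 ± 1.31% in WT zygotes, 1.43 ± 0.314% in CKO blastocysts and 2.73 ± 0.650% in WT blastocysts (SD, n = 2 libraries each). The genotype comparison asks whether methylation in the clusters differs without maternal Tet3. In zygotes CKO minus WT was 0.167 points (SD of the difference 1.31, exact two-sided permutation p = 1). In blastocysts it was -1.30 points (SD 0.722, exact permutation p = 0.333). Averaged over both stages it was -0.568 points (exact permutation p = 0.389 over 36 arrangements). With 2 libraries against 2 the smallest possible p is 0.333, so none of these pairs of groups could reach 0.05. The permutation p-values here and below are unadjusted, and adjustment could only raise them. Over 7546 autosomal tiles CKO minus WT averaged 4.22 points for zygotes, and for blastocysts 2.85 points. The median over all tiles and over the 23 Hox tiles was 0 at both stages. Over the 22 of these tiles that were at most 20% in sperm, CKO minus WT was -0.855 points in zygotes (2.18 ± 0.323% against 3.04 ± 2.72%, exact permutation p = 1). In blastocysts it was -1.19 points (1.09 ± 0.239% against 2.28 ± 1.05%, exact permutation p = 0.333). Tiles at most 20% in sperm numbered 4632 of 7505 over all autosomes, a smaller share than the 22 of 23 here. Their library means were 2.56% and 2.61% in CKO zygotes, against 2.30% and 2.26% in WT zygotes. In blastocysts they were 1.66% and 1.56% in CKO, against 1.79% and 1.56% in WT.

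Tile by tile, edgeR's quasi-likelihood test called 0 of the 23 Hox tiles between CKO and WT zygotes and 0 between CKO and WT blastocysts, at a Benjamini-Hochberg adjusted p of 0.05 over 7546 tiles. The background was 0% of tiles called in either comparison. At an unadjusted p under 0.05, edgeR gave 0 Hox tiles in either comparison, against 4.06% and 2.72% of all tiles. limma and edgeR with a common dispersion also called 0. At an unadjusted p under 0.05, limma gave 1 Hox tile in each comparison, against 6.9% of all tiles in zygotes and 7.7% in blastocysts. The zygote tile had the same mean level in CKO and WT, and the blastocyst tile was higher in CKO. In zygotes, CKO was above WT in 5 of the 23 tiles, below in 4 and equal in 14, against 38.7%, 22.3% and 39.1% of all tiles. In blastocysts CKO was above in 1, below in 9 and equal in 13, against 33.9%, 24.4% and 41.7% of all tiles. None of these 23 tiles had CKO and WT zygote libraries without overlap, against 12.4% of all tiles higher and 4.09% lower in CKO. More thinly covered Hox tiles without overlap are described below. The genotype by stage interaction called 0 Hox tiles with edgeR, against a background of 0.0133%, and 0 of them had an unadjusted p under 0.05 (2.21% of all tiles). The difference of differences in the 23-tile mean was -1.47 ± 1.06 points (SE), blastocyst minus zygote.

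In blastocysts, of the 23 tested Hox tiles, 1 was higher and 1 lower in CKO with no overlap between libraries, against 12% and 5.41% of all tiles. The HoxA tile at chr6:52174401-52174500, 19.9 kb upstream of the placed Hoxa5 start site, had 10 of 36 and 6 of 38 counts methylated in CKO blastocysts, against 0 of 12 and 0 of 40 in WT blastocysts. The means were 21.8 ± 8.48% in CKO and 0% in both WT libraries (SD, n = 2), and edgeR gave an adjusted p of 1. The HoxB tile at chr11:96156801-96156900 had 0 of 24 and 3 of 66 in CKO blastocysts, against 4 of 36 and 6 of 24 in WT blastocysts, with an edgeR adjusted p of 1. In CKO zygotes it had 0 of 54 and 0 of 192, and in WT zygotes 9 of 150 and 0 of 72.

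From zygote to blastocyst the 23-tile mean was lower in both genotypes, and 2 tiles carried the difference. WT blastocysts minus WT zygotes was -2.44 points (SD 1.46), and CKO blastocysts minus CKO zygotes was -3.91 points (SD 0.319), each with an exact permutation p of 0.333. Without the HoxB tile at 157.3 kb and the HoxD tile at 69.3 kb, left out after their values were seen, WT blastocysts minus WT zygotes was 1.16 points (SD 1.54, exact permutation p = 0.667) over the other 21 tiles. CKO blastocysts minus CKO zygotes was then -0.00231 points (SD 0.262, exact permutation p = 1). Of the 23 tiles, WT blastocysts were above WT zygotes in 6, below in 5 and equal in 12. CKO blastocysts were above CKO zygotes in 2, below in 6 and equal in 15. Shares of all tiles above, below and equal were 14.8%, 44.7% and 40.5% in WT, and 12.7%, 48.2% and 39.1% in CKO. Over all tiles the mean differences were -10.5 points in WT and -11.8 points in CKO. edgeR called 0 Hox tiles in WT, against a background of 0.424% in all and 0.411% lower in blastocysts, with 1 at an unadjusted p under 0.05 against 9.4% of all tiles. It called 1 in CKO, lower in blastocysts, against a background of 0.729% in all and 0.716% lower. Among the 23 tiles, libraries did not overlap in 1 higher and 2 lower in WT blastocysts, against 2.23% and 22.5% of all tiles. In CKO blastocysts 1 was higher and 2 lower, against 1.83% and 25.4%. The lower ones were the same in both genotypes, the HoxB tile at 157.3 kb and the HoxD tile at 69.3 kb. The tile called, in HoxD at chr2:74559301-74559400, lies 69.3 kb into the window and 41.7 kb upstream of the placed Hoxd1 start site, and holds 3 covered positions.

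The HoxD tile at 69.3 kb was almost fully methylated in sperm, with 120 of 124 and 87 of 91 counts. In CKO zygotes it had 45 of 57 and 63 of 89 counts methylated, and in WT zygotes 30 of 96 and 30 of 41. In CKO blastocysts it had 0 of 64 and 9 of 51, and in WT blastocysts 5 of 27 and 2 of 29. Both sperm libraries were above every embryo library, and all 4 blastocyst libraries were below every zygote library. CKO and WT overlapped at both stages. Summed shares with exact 95% intervals were 96.3% (92.8 to 98.4) in sperm, 74.0% (66.1 to 80.9) in CKO zygotes, 43.8% (35.3 to 52.5) in WT zygotes, 7.83% (3.64 to 14.3) in CKO blastocysts and 12.5% (5.18 to 24.1) in WT blastocysts. CKO blastocysts minus CKO zygotes was -66.0 points (8.82 ± 12.5% against 74.9 ± 5.77%, SD, n = 2, edgeR adjusted p = 0.0414). WT blastocysts minus WT zygotes was -39.5 points (12.7 ± 8.22% against 52.2 ± 29.6%, edgeR adjusted p = 0.815). The call in CKO was lost without either CKO zygote library, either CKO blastocyst library or either WT blastocyst library (edgeR adjusted p 0.0723 to 0.586), with limma (0.152), with edgeR's common dispersion (1) and with the replicate number as a block (edgeR adjusted p = 0.0625). It was kept with a minimum of 5 counts (edgeR adjusted p = 0.0494), with 20 (0.0365) and with 200-bp tiles (0.0311), where its counts were the same. Leaving out a WT library could change only the estimate of spread that the groups share, not this difference. CKO minus WT at this tile was 22.7 points in zygotes (SD 30.2, exact permutation p = 0.667) and -3.88 points in blastocysts (SD 14.9, exact permutation p = 0.667).

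From sperm to zygote the 23-tile mean differed by less than the spread between libraries. WT zygotes minus sperm was 0.0692 points (SD 1.33, exact permutation p = 1) and CKO zygotes minus sperm was 0.236 points (SD 0.254, exact permutation p = 0.333). Both comparisons share the sperm libraries. Opposite differences at 2 tiles offset each other in these means. The HoxD tile at 69.3 kb differed by -44.0 points in WT and -21.3 in CKO. The HoxB tile at 157.3 kb differed by 41.0 points in WT and 23.9 in CKO. Over 7505 autosomal tiles the mean differences were -11.8 points in WT and -7.62 points in CKO. edgeR called 2 Hox tiles between WT zygotes and sperm, against a background of 15.2%, and 0 between CKO zygotes and sperm, against 6.88%. One was lower in WT zygotes (background 13.8%) and the other higher (1.4%). The CKO background was 5.58% lower and 1.29% higher. The same 2 Hox tiles had an unadjusted p under 0.05 in CKO, in the same directions as in WT, against 17.7% of all tiles in CKO. Among the 23 tiles, libraries did not overlap in 1 higher and 3 lower in WT zygotes, against 3.76% and 32% of all tiles. In CKO zygotes 1 was higher and 1 lower, against 4.68% and 27.8%. limma called 1 Hox tile in each comparison, the HoxB tile at 157.3 kb, against a limma background of 10.2% in WT and 3.4% in CKO.

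One of the 2 was the HoxD tile at 69.3 kb, lower in WT zygotes than in sperm by 44.0 points (52.2 ± 29.6% against 96.2 ± 0.827%, edgeR adjusted p = 0.000526). CKO zygotes minus sperm was -21.3 points (edgeR adjusted p = 0.138). The WT call was lost without WT zygote replicate 1 (difference -23.0 points, adjusted p = 0.398), without sperm replicate 1 (0.0923), with limma (0.109) and with edgeR's common dispersion (0.461). It was kept with a minimum of 5 counts (edgeR adjusted p = 0.000592), with 20 (0.00037) and with 200-bp tiles (0.000424), where its counts were the same. It was also kept with the replicate number as a block (edgeR adjusted p = 0.00236). Leaving out a CKO zygote or a blastocyst library could change only the estimate of spread that the groups share, not this difference.

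The other was a HoxB tile with the opposite direction, at chr11:96207301-96207400, 157.3 kb into the window, with 6 covered positions. It had 0 of 66 and 0 of 78 counts methylated in sperm. In CKO zygotes it had 16 of 80 and 20 of 72, and in WT zygotes 62 of 92 and 5 of 34. In CKO blastocysts it had 0 of 14 and 0 of 64, and in WT blastocysts 0 of 78 and 0 of 40. All 4 zygote libraries were above every sperm and blastocyst library, and the WT zygote libraries stood on both sides of the CKO ones. WT zygotes averaged 41.0 ± 37.3% and sperm 0% in both libraries (edgeR adjusted p = 0.000647), and CKO zygotes averaged 23.9 ± 5.50% (edgeR adjusted p = 0.0689). The WT call was lost without WT zygote replicate 1 (difference 14.7 points, adjusted p = 0.456), without sperm replicate 1 (0.0793), without sperm replicate 2 (0.0886) and with the common dispersion (0.238). It was kept with a minimum of 5 counts (edgeR adjusted p = 0.000723) and with 200-bp tiles (0.000519), where its counts were the same. It was also kept with limma (adjusted p = 0.0181) and with the replicate number as a block (edgeR adjusted p = 0.00396). Leaving out a CKO zygote or a blastocyst library could change only the estimate of spread that the groups share, not this difference. WT blastocysts minus WT zygotes was -41.0 points (edgeR adjusted p = 0.0746). CKO blastocysts minus CKO zygotes was -23.9 points (edgeR adjusted p = 0.511). The HoxA tile at chr6:52203701-52203800, too thinly covered to be tested, was also at 0 in sperm, with 0 of 36 and 0 of 21 counts methylated. It had 0 of 18 and 18 of 27 in CKO zygotes and 20 of 36 and 0 of 6 in WT zygotes, so that 1 of the 2 zygote libraries of each genotype was at 0. In blastocysts 1 CKO library covered it with 3 of 21 and 1 WT library with 2 of 6. In the tile next to the HoxB one, chr11:96207401-96207500, chosen after its values were seen, 7 of 80 and 6 of 24 counts were methylated in CKO zygotes, against 6 of 24 and 0 of 20 in WT zygotes. Sperm had 0 of 52 there in each library, and WT blastocysts had 6 of 44 and 0 of 32.

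Of the 68 Hox tiles at most 20% in sperm and covered in all groups, 6 (8.82%) exceeded 20% in an embryo group, against 1521 of 15702 autosomal tiles (9.69%). The Hox share is near that of all tiles. Beside the HoxB tile at 157.3 kb and the HoxA tile at 74.4 kb, they were HoxA at chr6:52202801-52202900, HoxB at chr11:96130501-96130600, HoxC at chr15:102827201-102827300 and HoxD at chr2:74514201-74514300. Those outside the naming rule were chosen after their values were seen. The HoxA tile at 102.8 kb, the HoxB tile at 80.5 kb and the HoxD tile at 24.2 kb each had 1 library at 0 in the group in which they exceeded 20%. The HoxC tile, a single position, had 8 of 8 and 8 of 29 counts methylated in CKO zygotes, against 1 of 22 and 0 of 3 in WT zygotes and 4 of 25 and 3 of 12 in sperm. The HoxD tile had 0 of 4 and 10 of 28 in CKO blastocysts, against 2 of 20 in the WT blastocyst library that covered it. The HoxA tile at 102.8 kb had 5 of 21 and 0 of 39 in CKO zygotes, against 0 of 9 and 13 of 45 in WT zygotes.

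**Figure D4:**
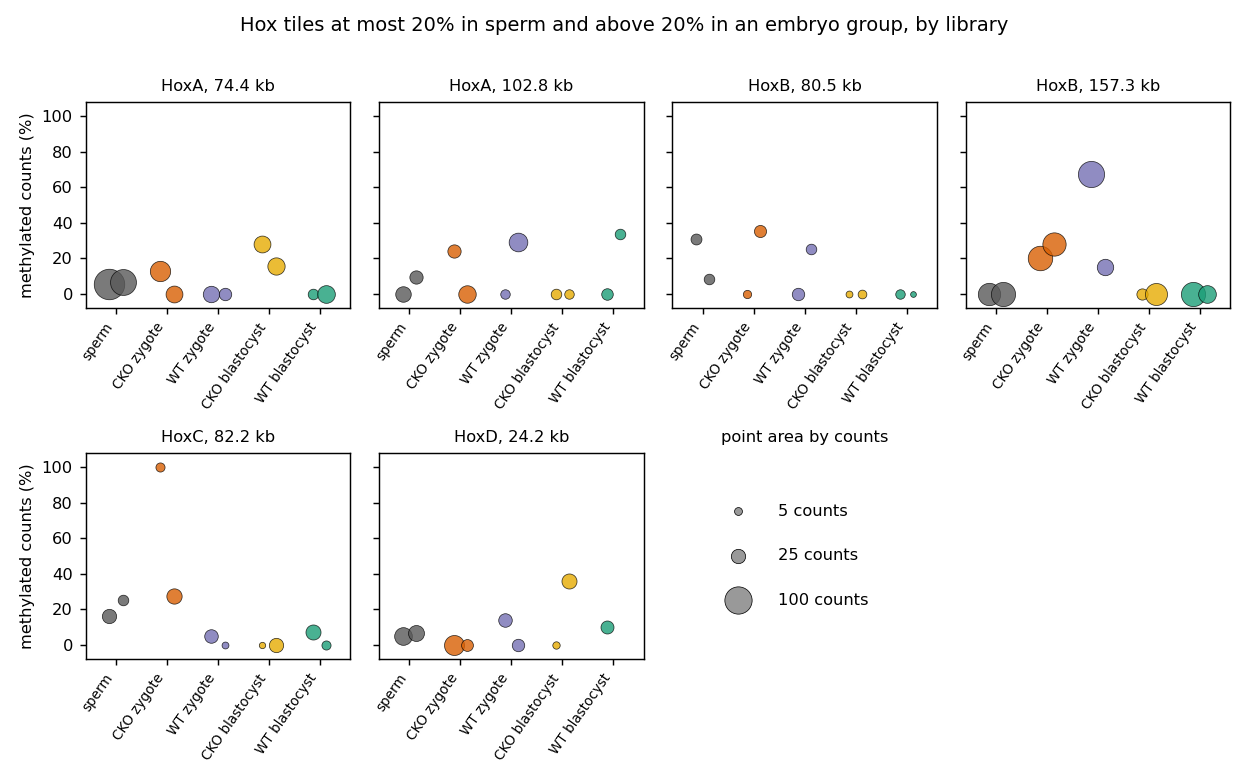
Panels show the 6 tiles at most 20% in sperm and above 20% in an embryo group, named by cluster and by kb from the window start. Each point is a library, its height the methylated share of counts (%) and its area the number of counts; sperm values lie between 0 and 30.8% and only HoxB at 157.3 kb has every zygote library above every other library.

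Of the 7 Hox tiles at least 50% in sperm, the HoxD tile at 69.3 kb alone reached 10 counts in every library. The others hold a single position each. Summed over all 7, methylated counts were 88.3% and 89.5% in sperm, 75.2% and 66.5% in CKO zygotes, 40.3% and 57.7% in WT zygotes, 7.76% and 23.0% in CKO blastocysts, and 18.9% and 17.7% in WT blastocysts. Both CKO zygote libraries were above both WT zygote libraries, and the blastocyst libraries overlapped. The difference was 21.8 points in zygotes (70.8 ± 6.14% in CKO against 49.0 ± 12.3% in WT, exact permutation p = 0.333) and -2.92 points in blastocysts (15.4 ± 10.8% in CKO against 18.3 ± 0.811% in WT, exact permutation p = 1). The sum was chosen after the data were seen and weights tiles by their counts, which differed between libraries. Within single tiles, CKO zygotes were above WT zygotes without overlap in 2 of the 7, below in 1, and overlapped in 4. Over 20439 autosomal tiles at least 50% in sperm, CKO zygotes were above in 23.5% and below in 7.57%. In blastocysts CKO was above in 2 of the 7, below in 1, overlapped in 3, and 1 tile was not covered in every library. Over 21419 such autosomal tiles CKO blastocysts were above in 20.9% and below in 8.6%.

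The 2 tiles higher in CKO zygotes were both in HoxA. The position in the tile at chr6:52178101-52178200, 23.6 kb upstream of the placed Hoxa5 start site, had 15 of 24 and 15 of 21 counts methylated in sperm. In CKO zygotes it had 9 of 11 and 18 of 35, and in WT zygotes 7 of 17 and 7 of 16. In CKO blastocysts it had 3 of 20 and 6 of 18, and in WT blastocysts 0 of 17 and 0 of 6. CKO was above WT at both stages. The position in the tile at chr6:52235801-52235900, 135.8 kb into the window, had 22 of 22 and 8 of 8 in sperm, 21 of 21 and 15 of 21 in CKO zygotes, and 10 of 25 and 3 of 7 in WT zygotes. In CKO blastocysts it had 0 of 4 and 0 of 3, and in WT blastocysts 7 of 16 and 12 of 22. There CKO was above WT in zygotes and below WT in blastocysts. Neither tile had enough counts in every library to enter the edgeR test.

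In HoxD the position in the tile at chr2:74592501-74592600, 8.49 kb upstream of the placed Hoxd1 start site, had 29 of 41 and 20 of 26 counts methylated in sperm, 24 of 30 and 21 of 26 in CKO zygotes, and 16 of 17 and 0 of 2 in WT zygotes. In CKO blastocysts it had 6 of 16 and 5 of 10, and in WT blastocysts 0 of 34 and 0 of 15. The blastocyst libraries did not overlap, with 43.8 ± 8.84% in CKO (SD, n = 2) and 0% in both WT libraries. The tile was not tested, since 1 WT zygote library held 2 counts.

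**Figure D5:**
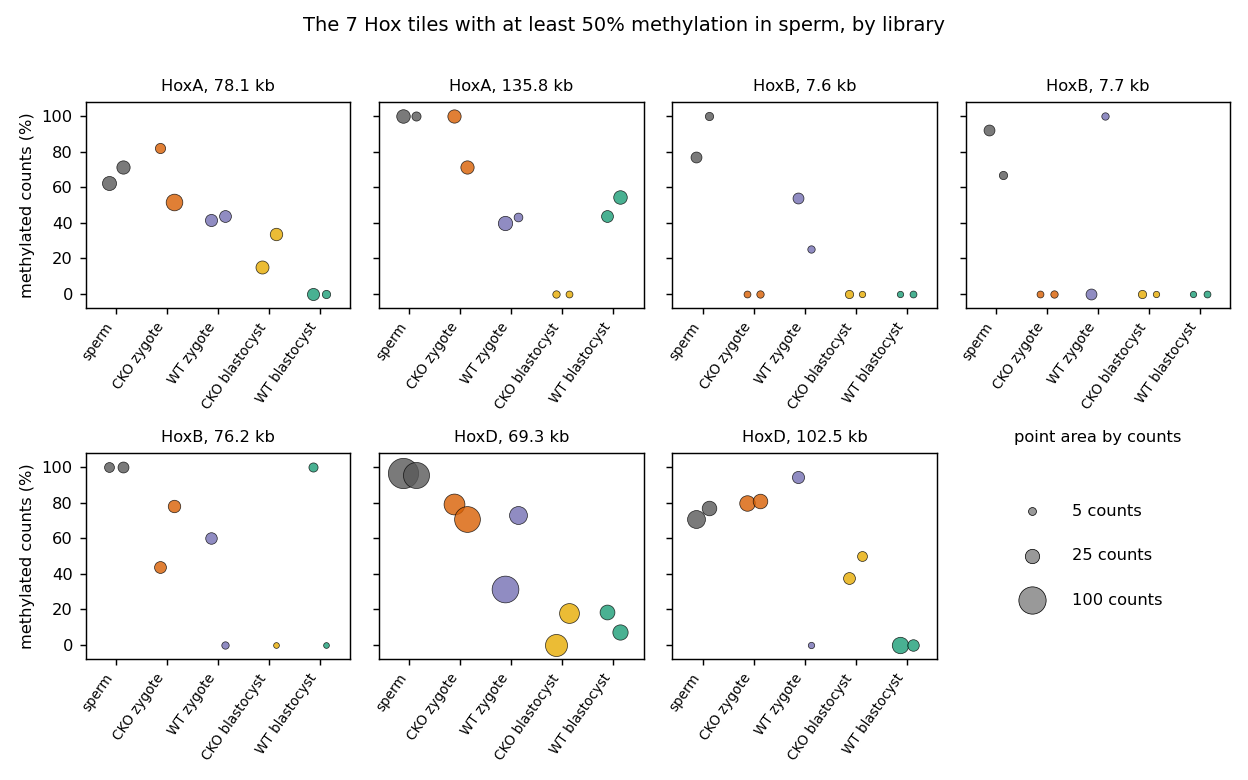
Panels show the 7 tiles at least 50% methylated in sperm, named by cluster and by kb from the window start. Each point is a library, its height the methylated share of counts (%) and its area the number of counts; HoxD at 69.3 kb has 95.6% to 96.8% in sperm and 0 to 18.5% in blastocysts.

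Single positions of HoxB completed the set. The position in the tile at chr11:96126201-96126300 had 10 of 10 and 13 of 13 counts methylated in sperm, 7 of 16 and 14 of 18 in CKO zygotes, and 9 of 15 and 0 of 4 in WT zygotes. In WT blastocysts it had 8 of 8 and 0 of 1, and CKO blastocysts held 1 count there, unmethylated. Its libraries ranged between 0 and 100% within a group, and no order of genotypes can be read from them. Among tiles between the classes in sperm, HoxB at chr11:96172001-96172100 had 69 of 143 and 18 of 76 counts methylated in sperm, 19 of 82 and 26 of 140 in CKO zygotes, and 10 of 58 and 0 of 42 in WT zygotes. In CKO blastocysts it had 0 of 5 and 10 of 39, and in WT blastocysts 0 of 85 and 0 of 4. HoxC at chr15:102793801-102793900 had 10 of 50 and 15 of 42 in sperm, 0 of 26 and 18 of 36 in CKO zygotes, and 0 of 86 and 0 of 12 in WT zygotes. In the HoxB tile the CKO zygote libraries were above the WT zygote libraries and the blastocyst libraries overlapped. In the HoxC tile CKO and WT overlapped at both stages.

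Other tiles with large differences each rested on a single library. In HoxA, chr6:52141401-52141500 had 12 of 27 and 0 of 12 counts methylated in CKO blastocysts, against 0 of 15 and 0 of 11 in CKO zygotes. Its WT blastocyst library with counts had 0 of 30, and sperm had 0 of 27 in each library. A neighbour, chr6:52142101-52142200, had 0 of 21 in each CKO blastocyst library, against 0 of 27 and 11 of 39 in WT blastocysts. Farther down, chr6:52129901-52130000 was covered in 1 library alone, of CKO blastocysts, with 8 of 16 counts methylated.

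In HoxB, chr11:96153001-96153100 had 1 of 16 and 0 of 12 counts methylated in WT blastocysts, against 10 of 28 and 0 of 32 in WT zygotes, and 5 of 50 and 0 of 102 in CKO zygotes. In HoxD, chr2:74574401-74574500 had 0 of 18 and 0 of 21 in WT blastocysts, against 0 of 33 and 6 of 18 in WT zygotes. The single position in chr2:74579101-74579200 had 0 of 40 and 8 of 14 in CKO zygotes, against 0 of 20 and 0 of 12 in WT zygotes and 2 of 64 and 6 of 58 in sperm. The HoxD tile at chr2:74505801-74505900 had 0 of 12 and 0 of 45 in CKO blastocysts, against 0 of 42 and 2 of 15 in WT blastocysts. In each of these 4 tiles the groups compared overlapped.

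Unmethylated tiles prevailed in each of the clusters. In sperm, unmethylated tiles made up 25 of 27 in HoxA, 32 of 38 in HoxB, 13 of 15 in HoxC and 32 of 35 in HoxD. In WT blastocysts they made up 22 of 23, 26 of 26, 13 of 13 and 27 of 27, in the same order. In CKO blastocysts they made up 21 of 25, 25 of 26, 14 of 14 and 23 of 25. All 14 HoxC tiles of CKO blastocysts had 0 methylated counts. The WT zygote libraries were farthest apart in HoxB, with 13.5% and 2.04% of all counts methylated, against 5.40% and 5.81% in CKO zygotes.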

How the data were processed

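The 10 RRBS libraries, 2 in each of 5 groups, were analysed from the deposited cytosine tables. Per the submitters' processing notes, Bismark 0.10.1, Trim Galore and the mm9 build were used; their settings and any selection of reads by allele were not given in the sources used here. The tables hold, per position, the authors' counts of methylated and unmethylated calls and a percent column, deposited as the methylated percentage of those counts, which equalled the ratio of counts within 0.001 points. Per the labels' protocols, MspI ends were filled in with dCTP, and a filled-in cytosine left untrimmed would be read as unmethylated.

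Both count columns were summed per 100-bp tile. Tiles with at least 10 counts in every library entered edgeR 4.0.16 (R 4.3.3), with quasi-likelihood F-tests on methylated and unmethylated counts, dispersion 0, and Benjamini-Hochberg adjustment over all autosomal tiles. Embryo contrasts used 8 libraries and sperm contrasts 10. limma 3.58.1 and other settings were alternatives. Mean levels were compared by exact two-sided permutation tests, and shares have exact Clopper-Pearson intervals of 95%. A share of 0 allows up to 3 counts of the total if counts are independent, which positions of the same read are not. The SD of a difference combines the variances of both groups' libraries. The scripts were tested on simulated data. Tables and figures were made with Python 3.11.15, numpy 2.4.6, pandas 2.3.3, scipy 1.17.1 and matplotlib 3.10.9.

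Tiles were named where edgeR called them, where they were among the 5 with the largest difference in a contrast, where they bounded 1 of the 3 longest stretches of a group, or where a group reached 50% at 10 counts or more. Other tiles were chosen after their values were seen. Members, lists and tests were chosen with earlier results of these data known. The labels do not say whether the duplicates came from separate animals or only separate pools of embryos. The p-values therefore measure spread between these libraries. In edgeR and limma that spread is estimated over all groups of a fit and moderated across tiles. It is not that of the compared groups alone. Same-numbered libraries showed no shared deviation (correlations of -0.0223 to 0.0136 over 7505 tiles), and the main tests did not pair them. Counting noise at these depths could hide a pairing.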

Additional observations from a re-analysis of the deposited data

Results flagged for a closer look

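In 2 tiles every library of a pair of groups moved one way and every library of another pair the opposite way. The rule asked only for some counts in every embryo library. The share of all autosomal tiles that meet it was not computed, so the number of Hox tiles has no background. The HoxA tile at chr6:52235801-52235900 was higher in CKO than in WT zygotes and lower in CKO than in WT blastocysts. The zygote difference exceeded the blastocyst difference by 93.4 points. The difference was not tested, and the CKO blastocyst libraries held 4 and 3 counts. The HoxC tile at chr15:102827201-102827300 was higher in CKO zygotes than in sperm and lower in WT zygotes than in sperm, and the second difference minus the first was -61.5 points. It was not tested either, and the thinnest library, of WT zygotes, held 3 counts. Groups of 2 libraries were too small for a check on single libraries that stand apart.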

How the results depend on the processing

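There were 317 alternative values over 32 results. Of these, 252 kept their direction and side of the threshold, 34 were weaker, 17 changed direction, 11 moved and 3 became stronger. The cause was not tested unless given. Some could not change. Pairing same-numbered libraries leaves a difference of means as it was, and so does leaving out a library of a group not compared. The tally is therefore no measure of stability. Mean levels over the Hox tiles were small beside the changes between settings. CKO minus WT zygotes was -1.74 points over summed counts and -0.0167 with 200-bp tiles. CKO minus WT blastocysts and WT blastocysts minus WT zygotes were both 0 with single positions, where 1 position passed the minimum. The interaction was -7.37 points with a minimum of 20 counts, 1.52 over summed counts and -6.12 with single positions. WT zygotes minus sperm was -0.974 with a minimum of 5 counts, -6.83 with 20 and -13.2 with single positions. CKO zygotes minus sperm was -0.501, -3.19 and -7.11 in the same order. Without the 2 tiles that edgeR called, a choice made after the data were seen, CKO minus WT zygotes was -0.0789 points and WT blastocysts minus WT zygotes was 1.16 points. The genotype difference averaged over stages was 0.0196 with a minimum of 5 counts. Methylated stretches in sperm numbered 0 with limits of 10% and 90% and 0 with a minimum of 20 counts, and unmethylated stretches in CKO blastocysts numbered 13 with that minimum. Without a gap limit, unmethylated runs numbered 11 in sperm, 12 in CKO zygotes, 9 in WT zygotes, 8 in CKO blastocysts and 4 in WT blastocysts. Hox calls between CKO blastocysts and CKO zygotes numbered 0 with limma (3 of all 7546 tiles) and 0 with the common dispersion (0 of 7546). Between WT zygotes and sperm, 1 of 6 Hox tiles was called with a minimum of 20 counts (331 of all 2757 tiles). There limma called 1 Hox tile (763 of all 7505 tiles) and the common dispersion 0 (0 of 7505). Between CKO zygotes and sperm limma called 1 Hox tile (255 of all 7505 tiles).

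With the replicate number as a block, edgeR called 0 Hox tiles between CKO blastocysts and CKO zygotes (adjusted p = 0.0625 for the HoxD tile at 69.3 kb). Over all 7546 tiles the calls in that comparison numbered 27 with the block and 55 without it. The block changed no other Hox call.

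Leaving out each replicate in turn gave these ranges of the mean level. CKO minus WT was -0.761 to 1.09 points in zygotes, -1.76 to -0.844 in blastocysts and -1.03 to -0.105 averaged over stages, and the interaction was -2.40 to -0.543. Blastocysts minus zygotes was -4.13 to -3.69 in CKO and -3.37 to -1.51 in WT. Zygotes minus sperm was 0.0617 to 0.411 in CKO and -0.858 to 0.997 in WT. Over tiles unmethylated in sperm CKO minus WT was -2.78 to 1.07 in zygotes and -1.93 to -0.442 in blastocysts. At the HoxD tile methylated in sperm it was 1.70 to 43.6 in zygotes and -12.7 to 4.94 in blastocysts. Each of these runs left 1 group with a single library, so numbers of calls are not given. Calls over all tiles changed between the runs as well, so a lost Hox call may not be particular to the Hox tiles. Depth left 23 of 194 Hox tiles testable, and single-position tiles rest on few counts.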
